A study of Mus musculus with 17 samples.

Results

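The immediate early genes described here are the transcription factor genes Egr1, Egr2, Egr3, Egr4, Fos, Fosb, Fosl1, Jun and Junb together with Ier2. They were taken by symbol, with no threshold on a measured value, and make up 10 of the 23891 gene symbols in the expression tables. Each gene was represented by its RefSeq transcript with the highest mean level over the 17 samples. Egr3 has 3 transcripts in the tables and each other member has 1. The values are FPKM (fragments scaled to transcript length and to the size of the library), a level per length, so that members can be compared with each other within a sample.

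RNA-seq had been performed on cultured mouse stem cells to follow how spermatogonial stem and progenitor cells (SSCs) turn into MASCs, the multipotent stem cells that arise from them in culture. The samples were 4 SSC lines, 6 MASC lines, 2 embryonic stem cell (ESC) lines, 2 induced pluripotent stem (iPS) cell lines, 2 cultures of haematopoietic stem and progenitor cells (HSCs) and 1 sample of mouse embryonic fibroblasts (MEFs). The lines of 1 cell type are treated as replicates, although nothing in the labels states which of them share a founder culture, so p-values measure the spread among these lines. SSC.1 and SSC.2 were from Oct4-GFP mice, SSC.3 from C57Bl/6J and SSC.4 from 129mix. MASC.1 and MASC.2 were from Oct4-GFP, MASC.3 and MASC.4 from 129mix, and MASC.5 and MASC.6 from Gt(ROSA26)Sor-lacZ mice, all arising in long-term SSC culture and subcloned. ESC.1 was from Oct4-GFP and ESC.2 from 129mix. Both iPS lines and the MEF sample were 129mix, the iPS lines having been induced by doxycycline from tetO-4F2A fibroblasts that, like the MEF sample, carried H3.3B-HA. Both HSC cultures were from C57Bl/6J bone marrow, depleted of lineage-positive cells.

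Culture and collection differed with the cell type. SSCs were grown on MEF feeders with 20 ng/ml EGF, 10 ng/ml bFGF, 10 ng/ml GDNF and 1% fetal bovine serum. Before collection they spent 2 h in fresh medium on gelatin, where feeder cells attach and the floating SSCs are taken. MASCs, ESCs and iPS cells were kept with MEFs in 10% serum replacement and 1000 U/ml LIF. HSCs grew in serum-free medium with 10 ng/ml Kit ligand on E4ORF1-HUVECs, a human endothelial feeder layer, and MEFs in 10% serum. Cell type, medium and handling therefore cannot be told apart where SSCs, HSCs or MEFs are compared with another cell type, whereas MASCs, ESCs and iPS cells had the same medium. In bulk RNA, fewer cells of a kind and less RNA per cell cannot be told apart either.

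Immediate early genes are transcribed within minutes of a stimulus such as a growth factor, serum or handling stress, without new protein synthesis, and their short-lived mRNAs fall again soon afterwards. The ERK cascade reaches many of them through SRF and its ternary complex partners, and CREB family factors through cyclic AMP response elements. EGR proteins are zinc finger factors that bind GC-rich sites, while FOS and JUN proteins pair through leucine zippers to form AP-1. In spermatogonial culture, GDNF and FGF signalling sustains self-renewal, and Egr genes are among the genes that respond to such signals.

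Cell type markers largely matched the labels, with exceptions. In the differences from SSC lines, 7 of 7 pluripotent cell markers were higher in MASCs and 7 of 7 in ESCs, and 5 of 7 spermatogonial markers were lower and 1 was higher in MASCs. All 8 blood cell markers were higher in HSCs. In the MEF sample 6 of these 8 were at 1 FPKM or more, with Spi1 at 46.1 FPKM, and their sum was 3.25% of that in HSC.2. The spermatogonial marker Gfra1 was 35.5 FPKM in MEFs, above the 9.04 to 31.7 FPKM of the SSC lines. SSC.1 had 94.5 FPKM of the pluripotent cell marker Pou5f1, against 1.37 to 5.42 FPKM in the other SSC lines. Fibroblast markers, which MEF feeder cells would bring, varied among lines. The summed FPKM of 15 such genes was between 0.115% and 2.50% of the MEF level in 11 of the samples, and reached 6.43% in ESC.1, 7.36% in SSC.1, 7.38% in HSC.2, 15.8% in SSC.3 and 19.0% in MASC.1. None of the 15 markers was at 0 in any sample except HSC.1, in which 1 was. The 5 lines at 6.43% or more are referred to below as the lines high in fibroblast markers, and results are given without them where that changed a call. Among them, HSC.2 was grown on human endothelial feeders and not on MEFs, and the source of its fibroblast markers was not tested. Of 6 endothelial markers, 6 were at 1 FPKM or more in HSC.2 and 1 in HSC.1.

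Sequence upstream of the start site was present in the RefSeq promoter table (GRCm38.p6) for 6 of the 10 members, namely Egr2, Egr4, Fos, Fosb, Jun and Junb. The 250 bases before the start are shown for Egr4, the member with the largest difference between SSCs and MASCs, and for Fos and Fosb, whose levels were among the most variable within cell types. Capitals mark the cyclic AMP response element half-site TGACG or its reverse complement CGTCA and, in Fosb, the EGR site GCGGGGGCG.
Egr4 promoter, chr6:85513590-85513839, minus strand: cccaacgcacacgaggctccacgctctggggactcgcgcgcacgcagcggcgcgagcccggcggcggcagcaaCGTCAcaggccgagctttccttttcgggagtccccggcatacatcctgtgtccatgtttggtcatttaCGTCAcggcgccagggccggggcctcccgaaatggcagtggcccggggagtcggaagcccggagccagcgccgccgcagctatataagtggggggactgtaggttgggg
Fos promoter, chr12:85473640-85473889, plus strand: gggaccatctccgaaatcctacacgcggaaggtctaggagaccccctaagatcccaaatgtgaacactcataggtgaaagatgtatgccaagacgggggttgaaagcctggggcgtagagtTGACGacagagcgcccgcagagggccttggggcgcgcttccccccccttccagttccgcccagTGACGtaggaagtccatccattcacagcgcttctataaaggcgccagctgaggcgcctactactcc
Fosb promoter, chr7:19310046-19310295, minus strand: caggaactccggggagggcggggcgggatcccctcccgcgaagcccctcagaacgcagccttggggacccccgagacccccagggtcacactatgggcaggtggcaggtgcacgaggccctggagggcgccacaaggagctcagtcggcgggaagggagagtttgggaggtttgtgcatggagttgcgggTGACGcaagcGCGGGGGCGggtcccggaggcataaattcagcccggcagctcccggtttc

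Egr4 and Fos each held 2 half-sites and Fosb held 1, as did Junb, whereas none was found in this window of Jun. Egr2 had 5 start-site windows, of which 3 overlapping ones held the same 2 half-sites and the others none. The half-site occurred in 17.8% of all 32851 promoter windows of this length, on either strand. The EGR site of Fosb, searched as GCGTGGGCG or GCGGGGGCG on both strands, occurred in 3.06% of windows. These shares were not matched for base content. The window of Fosb was 68.8% G or C and that of Egr4 68.0%, against a median of 52.4% over all windows. The complete element TGACGTCA (1.55% of windows) and the AP-1 site TGANTCA (6.75%) were not found in the windows of these 6 genes. A CArG box, the sequence SRF binds, was found in 4 of the 5 start-site windows of Egr2 and in 1.47% of all windows. In 3 of these overlapping windows it was the same CCATATATGG, and a match of letters shows no binding.

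Egr4 (NM_020596, chr6:85461116-85463536 of mm9, minus strand) separated SSCs from every other sample. It encodes an EGR zinc finger factor known from neurons and germ cells. Its level was 177 FPKM in SSC.1, 101 in SSC.2, 183 in SSC.3 and 193 in SSC.4. In MASC.1 to MASC.6 it was 1.52, 4.54, 0.327, 0.414, 0.58 and 0.20 FPKM, and in ESC.1 and ESC.2 0.885 and 1.65 FPKM. The 4 SSC lines lay far above all others, and the lines of the 2 iPS, 2 HSC and 1 MEF samples were at or below 0.281 FPKM. The mean of 163.5 ± 42.1 FPKM (SD, n = 4) in SSCs was 129 times that of 1.26 ± 1.68 FPKM (SD, n = 6) in MASCs. On log2(FPKM + 1), on which all differences below are given, MASCs were lower by -6.38 ± 0.43 (SE; limma, adjusted p = 5.5e-06). ESCs differed from SSCs by -6.16 ± 0.57 (limma, adjusted p = 8.7e-05) and HSCs by -6.99 ± 0.52 (limma, adjusted p = 8.9e-07).

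Egr1 (NM_007913, chr18:35020861-35024610), the prototype of the family and a first responder to growth factors, was the other abundant Egr gene in SSCs. It stood at 118.5, 50.9, 106.3 and 43.4 FPKM in SSC.1 to SSC.4. In MASC.1 to MASC.6 it was 78.8, 26.6, 5.18, 8.33, 6.34 and 5.54 FPKM. The groups overlapped, since MASC.1 exceeded both SSC.2 and SSC.4. The difference was -2.45 ± 0.79 (limma, adjusted p = 0.040), and the exact permutation test over lines gave p = 0.024 (two-sided). The call was not stable. With the mouse strain as a term of the fit the difference was -1.47 ± 0.56 (adjusted p = 0.10). Leaving out any one of SSC.1 to SSC.4 or of MASC.3 to MASC.6 moved the adjusted p to between 0.054 and 0.10, whereas it was 0.048 without the lines high in fibroblast markers. Egr1 was highest outside the germ line and pluripotent lines, at 168 and 204 FPKM in the HSC cultures and 259 FPKM in MEFs.

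Egr2 (NM_010118, chr10:67000617-67004936), which acts in hindbrain patterning and myelination, was expressed at a lower level with little spread in SSCs. The values were 7.17, 8.37, 6.08 and 4.31 FPKM in the SSC lines against 0.578, 0.852, 0.142, 0.165, 0.163 and 0.207 FPKM in the MASC lines. All SSC lines lay above all MASC and ESC lines. The difference of MASCs from SSCs was -2.46 ± 0.23 (limma, adjusted p = 3.9e-05), and it passed the threshold in all 19 alternative settings tried.

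Egr3 (NM_018781, chr14:70477252-70482420), which acts in muscle spindles and lymphocytes, was low and variable. It was 0.634, 7.28, 2.40 and 2.99 FPKM in SSC.1 to SSC.4, and between 0.0001 and 2.41 FPKM, with a median of 0.402, in MASCs. SSC.1 and SSC.3 fell within the MASC range, SSC.3 just below MASC.1. The difference of -1.20 ± 0.49 did not pass the threshold (limma, adjusted p = 0.094). It did so without SSC.1 (adjusted p = 0.031), without MASC.1 (0.047) and without the lines high in fibroblast markers (0.027). Summed over the 3 transcripts, Egr3 was 0.634, 13.5, 2.40 and 6.14 FPKM in the SSC lines and 7.39 and 29.5 FPKM in the HSC cultures. In MASCs the sum ranged from 0.219 FPKM in MASC.3 to 3.25 FPKM in MASC.1.

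The Egr genes thus differed in composition as well as in sum. Egr4 made up 58.4% to 79.2% of the summed Egr FPKM in the 4 SSC lines and at most 13.6% in any other sample. Egr1 made up 79.4% to 98.5% in every sample that was not an SSC line. MEFs and SSCs reached similar sums, 272 FPKM in MEFs against 168 to 304 in SSCs, through different genes.

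**Figure D1:**
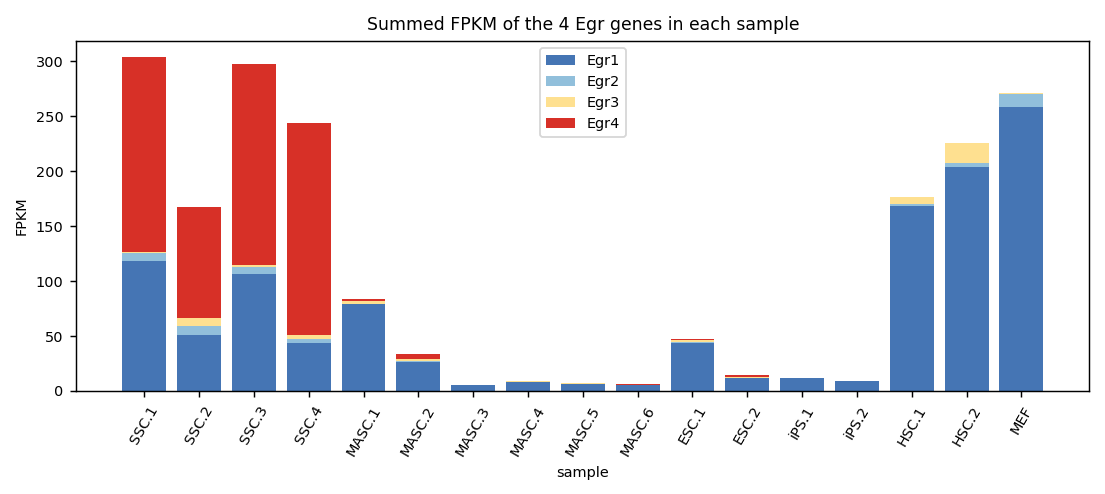
Stacked bars of the FPKM of Egr1, Egr2, Egr3 and Egr4 in each of the 17 samples, on a linear axis from 0. The 4 SSC lines carry a large Egr4 block, 58.4% to 79.2% of the bar, whereas the bars of HSC cultures and MEFs are mostly Egr1.

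Fos, Fosb and Fosl1 encode AP-1 partners that need a JUN protein to bind DNA. Fos (NM_010234, chr12:86814851-86818219) was 62.7, 18.3, 55.9 and 10.6 FPKM in SSC.1 to SSC.4. In MASC.1 to MASC.6 it was 101, 23.7, 2.61, 2.41, 3.99 and 2.53 FPKM. MASC.1 was above all SSC lines while MASC.3 to MASC.6 were below all of them, and the difference of -1.73 ± 1.17 did not pass the threshold (limma, adjusted p = 0.32). ESC.1 at 43.4 FPKM and ESC.2 at 2.92 FPKM differed as widely.

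Fosb (NM_008036, chr7:19888045-19895394, minus strand) varied widely among lines of the same cell type. It was 14.3, 0.425, 46.0 and 0.476 FPKM in SSC.1 to SSC.4. In MASC.1 to MASC.6 it was 57.5, 10.2, 0.498, 0.485, 0.874 and 0.612 FPKM. The highest line was 108 times the lowest within SSCs, 118 times within MASCs and 80.8 times between the 2 ESC lines, at 34.3 and 0.424 FPKM. In each of these cell types some lines were near 0.5 FPKM and others above 10, and the means of MASCs and SSCs differed by less than this spread (-0.62 ± 1.53; limma, adjusted p = 0.86). Fosl1 (NM_010235, chr19:5447698-5455938), encoding Fra-1, stayed between 0.103 and 6.82 FPKM in all 17 samples. Its highest values were in MASC.1 and MASC.2, at 6.29 and 6.82 FPKM, and no difference between cell types passed the threshold in the 6 comparisons.

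Jun (NM_010591, chr4:94715727-94718913, minus strand), which encodes the AP-1 subunit that can also bind DNA as a homodimer, was 15.7, 3.45, 23.4 and 4.47 FPKM in SSC.1 to SSC.4. In MASC.1 to MASC.6 it was 103, 42.7, 9.89, 8.80, 9.38 and 8.45 FPKM. The MASC lines fell into a pair above all SSC lines and 4 lines of nearly equal level within the SSC range. The difference of 0.93 ± 0.89 did not pass the threshold (limma, adjusted p = 0.50), but was 2.17 (adjusted p = 0.047) when the mouse strain was a term of the fit. With that term SSC.3, which had the highest Jun and Junb of the SSC lines, added nothing to the difference, nor did MASC.5 and MASC.6. Junb (NM_008416, chr8:87500808-87502647, minus strand), whose product can restrain JUN, was 16.5, 49.7, 95.8 and 14.7 FPKM in SSCs. In MASCs it ranged from 21.4 to 88.2 FPKM with a median of 32.9. These ranges overlapped almost fully (0.32 ± 0.63; limma, adjusted p = 0.79), whereas with strain as a term the difference was 1.36 (adjusted p = 0.035).

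Ier2 (NM_010499, chr8:87185230-87186751, minus strand), which encodes a small nuclear protein induced early after stimulation, was the only member past the threshold as higher in MASCs, apart from the calls of Jun and Junb with strain as a term. It was 23.6, 51.6, 34.9 and 20.9 FPKM in SSC.1 to SSC.4. In MASC.1 to MASC.6 it was 173, 178, 109, 109, 122 and 101 FPKM, and in the ESC lines 153 and 105 FPKM. All MASC and ESC lines lay above all SSC lines. The mean was 4.03 times higher in MASCs, a difference of 2.03 ± 0.28 (limma, adjusted p = 0.00041) that passed the threshold in all 19 alternative settings. SSCs had the lowest Ier2 of the 6 cell types, and the highest values were in HSCs at 210 and 212 FPKM.

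**Figure D2:**
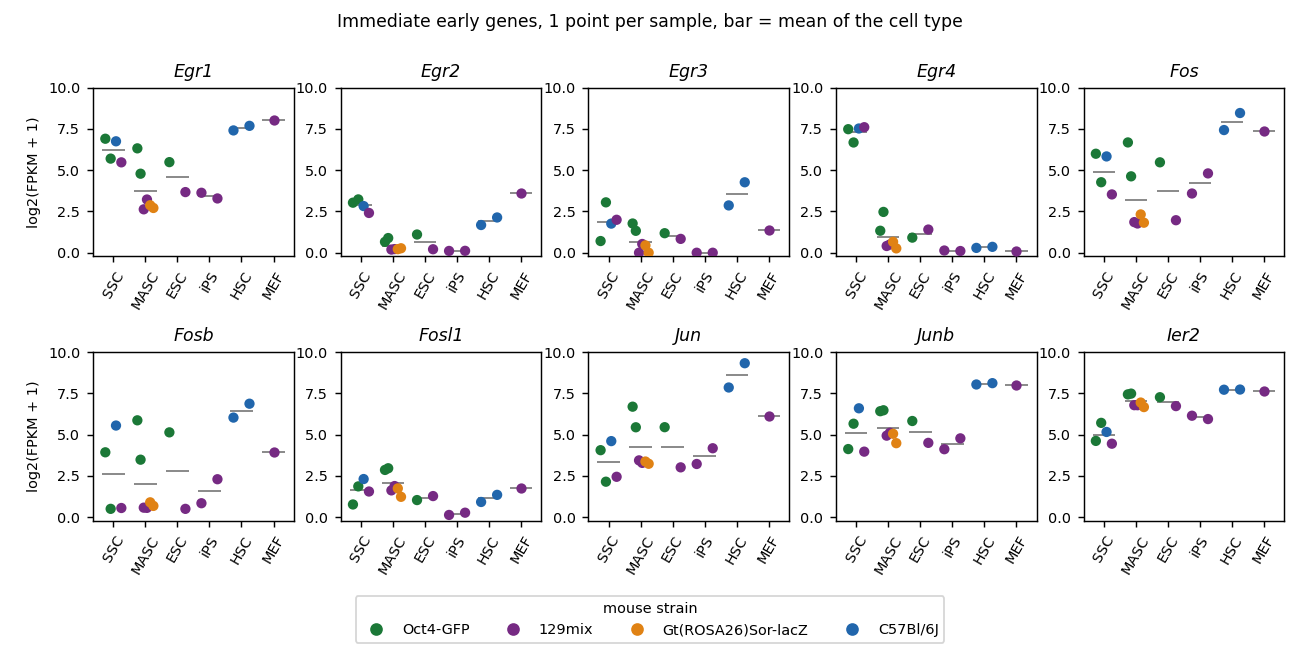
Level of each of the 10 members as log2(FPKM + 1), with 1 point per sample, coloured by mouse strain, and a bar at the mean of each cell type. Egr4 is high in the 4 SSC lines alone, Ier2 is lowest in them, and the Oct4-GFP lines (green) sit above the other MASC lines in every panel.

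Of the 10 members, 1 was higher and 3 were lower in MASCs than in SSCs at an adjusted p under 0.05, where 11.4% of all 32661 transcripts were called higher and 19.5% lower. The median difference was -0.91 over the members and 0.00 over all transcripts (-0.0048 before rounding). The same 4 genes also met a raw p under 0.05 together with a log2 difference of 2 or more, a rule that 1.81% of transcripts passed as higher and 2.21% as lower. For 3 of the 4, namely Egr2, Egr4 and Ier2, the exact permutation test gave p = 0.0048 (two-sided), the smallest that 210 arrangements of 4 and 6 lines allow. Their groups did not overlap. A group above the other without overlap was found for 9.92% of transcripts and a group below it for 15.4%. All 10 members reached 1 FPKM in 2 or more samples, a filter that was tried as an alternative.

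ESCs were compared with the same SSC lines. Ier2 was higher by 2.01 ± 0.37 (limma, adjusted p = 0.0040), and Egr2 (-2.22 ± 0.31; adjusted p = 0.00084) and Egr4 were lower. These were 1 member higher and 2 lower, against 7.67% and 13.8% of all transcripts. Without the lines high in fibroblast markers, which left 1 ESC line assumed to vary like the other groups, Ier2 no longer passed (1.65; limma, adjusted p = 0.13). The comparisons of MASCs and of ESCs share the SSC lines and are no independent evidence for each other. Between MASCs and ESCs, no member passed in limma and none had a raw p under 0.05. In the same comparison, 0.00306% of transcripts were called higher and 0.0276% lower, and 954 of all 32661 had a raw p under 0.05. The spread leaves room for sizeable differences, with an SE of 1.94 for Fosb and 1.47 for Fos but 0.35 for Ier2.

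**Figure D3:**
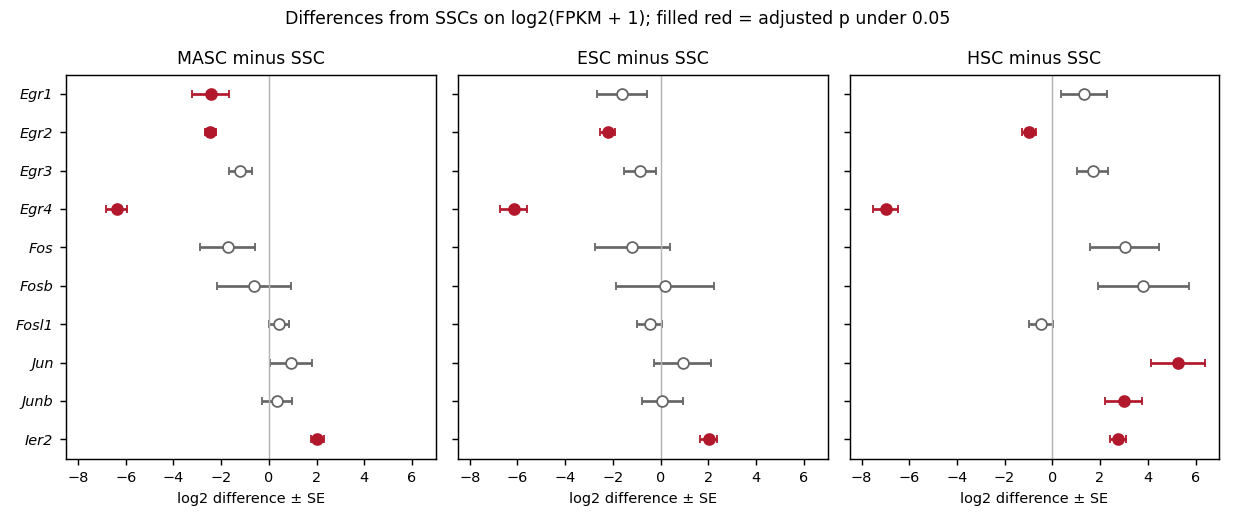
Differences of MASCs, ESCs and HSCs from SSCs for each member as log2(FPKM + 1), as points with ± SE from limma. Filled red points have an adjusted p under 0.05. Egr4 lies near -6 to -7 in all 3 panels, and Jun, Junb and Ier2 are filled to the right in HSCs.

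HSC cultures had the highest levels of several members. Jun was 231 and 641 FPKM in HSC.1 and HSC.2, Fos 171 and 351, Fosb 64.6 and 116, and Junb 262 and 277. Both cultures were above every SSC, MASC, ESC and iPS line for these 4 genes. Against SSCs, Jun (5.27 ± 1.13; limma, adjusted p = 0.0031), Junb (2.99 ± 0.78; adjusted p = 0.010) and Ier2 (2.74 ± 0.34; adjusted p = 6.1e-05) were higher. Egr2 (-0.97 ± 0.29; limma, adjusted p = 0.023) and Egr4 were lower. These were 3 higher and 2 lower of 10, against 12.7% and 20.7% of all transcripts. The calls of Junb and Egr2 did not hold in every setting: without HSC.1 the adjusted p of Junb was 0.053 and that of Egr2 0.19, without HSC.2 that of Junb was 0.060, and without SSC.2 that of Egr2 was 0.05005. Without the lines high in fibroblast markers, which left HSC.1 alone, Egr2 did not pass (-1.14 ± 0.40; limma, adjusted p = 0.075). Fosb then passed, at 5.50 ± 1.30 (limma, adjusted p = 0.019) against 3.81 ± 1.89 (0.15) with all samples.

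Against MASCs, 6 members were higher in HSCs and 0 were lower in limma, where 14.8% of transcripts were called higher and 16.8% lower. The 6 were Fos (4.76 ± 1.36; limma, adjusted p = 0.019), Jun (4.34 ± 1.06), Egr1 (3.79 ± 0.91), Egr3 (2.89 ± 0.61), Junb (2.66 ± 0.73) and Egr2 (1.50 ± 0.27). At an unadjusted p under 0.05 there were 8, the others being Fosb and Ier2, where 13165 of all 32661 transcripts passed in either direction. Without HSC.2, 1 member passed, Egr2, and the remaining HSC.1 was assumed to vary like the other groups. Without HSC.1, 4 passed, Fos and Junb being lost. Without all the lines high in fibroblast markers there were 7, since Fosb also passed (4.79 ± 1.17; limma, adjusted p = 0.023). HSC.2, which carried the fibroblast markers, was higher than HSC.1 for all 10 members, as were 62.1% of all transcripts. HSC.1, with fibroblast markers at 0.115% of the MEF level, had 64.6 FPKM of Fosb, and the MEF sample had 14.2 FPKM. The part of fibroblast cells in the difference between HSC.1 and HSC.2 was not tested.

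The iPS lines were low for most members. Egr2, Egr3, Egr4 and Fosl1 were at or below 0.213 FPKM in both, while Fos was 11.01 and 26.9 FPKM and Jun 8.36 and 17.1 FPKM. No member differed between iPS cells and ESCs in limma (0.196% of transcripts were called higher and 0.113% lower). At a raw p under 0.05 there was 1, Ier2, against 2624 of all 32661 transcripts. Ier2 was 69.9 and 60.6 FPKM in the iPS lines against 153 and 105 FPKM in ESCs.

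The order of the cell types differed among members. For Egr1 the means on log2(FPKM + 1) fell from MEFs through HSCs, SSCs, ESCs and MASCs to iPS cells, and the ranges overlapped between SSCs and ESCs and further down. For Fos, Jun and Junb, HSCs and MEFs came first, and SSCs, MASCs, ESCs and iPS cells overlapped with their neighbours in the order. For Ier2 the order was HSCs, MEFs, MASCs, ESCs, iPS cells and SSCs, and overlap occurred between MASCs and ESCs alone. For Egr4, SSCs came first with no overlap with ESCs, the next type.

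Spread among the lines of 1 cell type was then compared with that of other transcripts. The SD of log2(FPKM + 1) among the 4 SSC lines had a median of 0.84 over the members, against 0.39 over the 17140 transcripts with a mean of at least 1 FPKM. Of the members, 9 were above that median and 5 were above the 90th percentile of 0.88. In MASCs the median was 0.83 over the members and 0.30 over the transcripts, with 9 members above the median and 6 above the 90th percentile of 0.73. In ESCs the medians were 0.78 and 0.25, in iPS cells 0.19 and 0.13 and in HSCs 0.31 and 0.28, each from 2 lines.

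On log2(FPKM + 1), Fosb had the largest SD of the members in SSCs (2.52), MASCs (2.20), ESCs (3.27) and iPS cells (1.03). In MASCs, 0.916% of the transcripts at this level had an SD as large. Fos followed in MASCs (2.03) and ESCs (2.48), and Egr1 and Jun had SDs of 1.49 and 1.47 in MASCs. Ier2 had an SD of 0.36 in MASCs, close to the median transcript, and its highest line was 1.77 times its lowest. The SD of Egr2 was 0.29 in MASCs, but its levels were under 1 FPKM there, where log2(FPKM + 1) is compressed, and the highest line was 5.98 times the lowest. Egr4 had an SD of 0.43 in SSCs, close to the median transcript (0.39), and of 0.84 in MASCs, where its level was low.

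**Figure D4:**
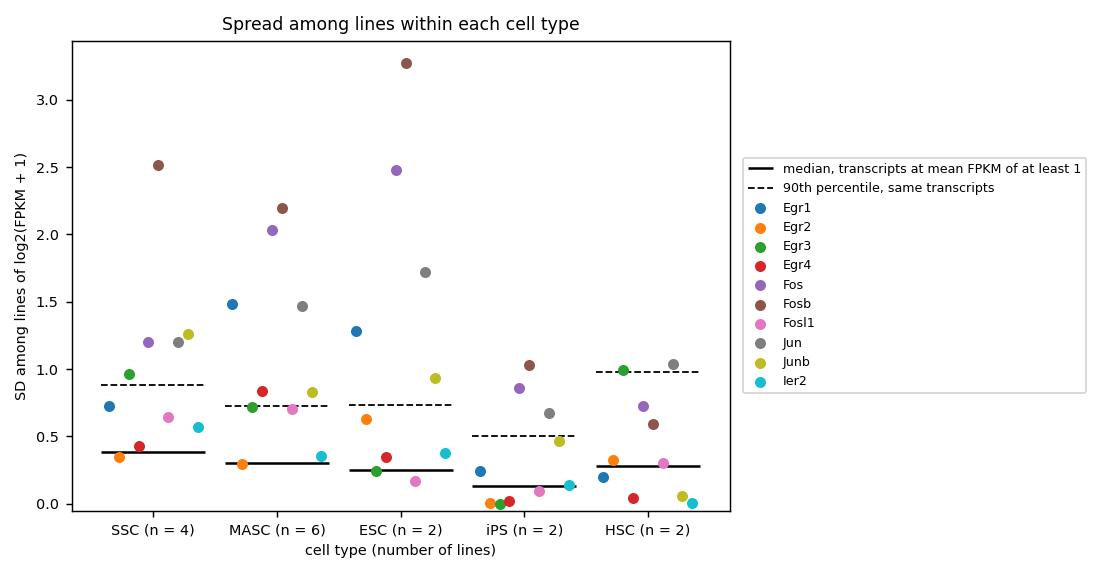
SD among lines of log2(FPKM + 1) for each member in SSCs, MASCs, ESCs, iPS cells and HSCs, with the median (solid line) and 90th percentile (dashed line) of all transcripts with a mean of at least 1 FPKM. Fosb is at the top in SSCs, MASCs, ESCs and iPS cells, whereas Ier2 lies near the solid line in MASCs, as does Egr2, at levels under 1 FPKM where the scale is compressed.

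The spread in SSCs and in MASCs was compared by the mean absolute deviation of the lines from the median of their cell type. No member had a p under 0.05 (two-sided exact permutation test, raw p from 0.24 for Junb to 0.96 for Jun, adjusted p of at least 0.69), and 4 members had the larger deviation in MASCs. Over all transcripts 2.79% had a raw exact p under 0.05 with the larger spread in MASCs and 14.3% with the larger in SSCs, and 0 passed after adjustment. The confidence bounds that Cufflinks gave each FPKM were far narrower than the differences among lines. They did not overlap in 56 of 60 pairs of SSC lines over the members (93.3%, against 71.0% over transcripts with a mean of at least 1 FPKM) and in 114 of 150 pairs of MASC lines (76.0% against 59.2%). Pairs of lines share lines, and these bounds cover the estimation in 1 library only.

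The spread in MASCs lay along the strain of the lines. For all 10 members both Oct4-GFP lines, MASC.1 and MASC.2, were above each of the other 4 lines, an order found for 16.9% of all transcripts and 22.8% of those with a mean of at least 1 FPKM. This order was noticed in the values and is given without a test. MASC.1 and MASC.2 were each the highest MASC line for 5 members. They also differed from each other, with Fosb at 57.5 and 10.2 FPKM. Of the MASC lines, MASC.1 was the one high in fibroblast markers, at 19.0% of the MEF level. The lower Oct4-GFP line exceeded the highest other line 11.7 times for Fosb, 5.93 times for Fos, 4.31 times for Jun and 3.19 times for Egr1, but 1.41 times for Ier2. Among the 4 other MASC lines the members' median SD was 0.21, against 0.17 for the transcripts, and 5 of 10 members were above it.

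The same strain was high in ESCs but not in SSCs. ESC.1, the Oct4-GFP line, was above ESC.2 for 8 of 10 members, as were 44.9% of all transcripts. Among SSC lines, the Oct4-GFP lines SSC.1 and SSC.2 held the highest value for 2 and 3 members and the lowest for 2 and 3, whereas SSC.3 held the highest for 4 and SSC.4 the lowest for 5. The difference of MASCs from SSCs was compared between Oct4-GFP and 129mix lines by an interaction term. With 2 MASC lines and 1 SSC line in 129mix, this term left room for sizeable differences. No member passed it in limma (0.496% of transcripts were called higher and 0.248% lower) and none had a raw p under 0.05. Of all 32661 transcripts, 3848 had a raw p under 0.05 for this term. Fos differed between MASCs and SSCs by 0.52 in Oct4-GFP and by -1.72 in 129mix lines (difference 2.24 ± 1.44; limma, adjusted p = 0.69). Egr4 differed by -5.18 and -7.15 (1.97 ± 0.76; limma, adjusted p = 0.44). Strain, founder and subclone cannot be told apart with these few lines.

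Fibroblast markers moved with part of this spread. In each of SSCs, MASCs and ESCs, the line with the highest Fosb, that is SSC.3, MASC.1 and ESC.1, was also the one with the highest fibroblast marker sum. Fosb was 46.0, 57.5 and 34.3 FPKM in these lines and 14.2 FPKM in the MEF sample, which was grown in 10% serum. MASC.2, with markers at 2.50%, had 10.2 FPKM of Fosb and 42.7 FPKM of Jun. Egr4 was 0.0845 FPKM in MEFs. The part of feeder cells in the levels of the members was not tested. Without the lines high in fibroblast markers, MASCs differed from SSCs by -2.34 for Egr1, -2.46 for Egr2, -6.28 for Egr4 and 1.85 for Ier2, all past the threshold, and by 0.71 ± 0.90 for Fosb and -1.42 ± 0.89 for Fos (limma, adjusted p = 0.68 and 0.33).

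**Figure D5:**
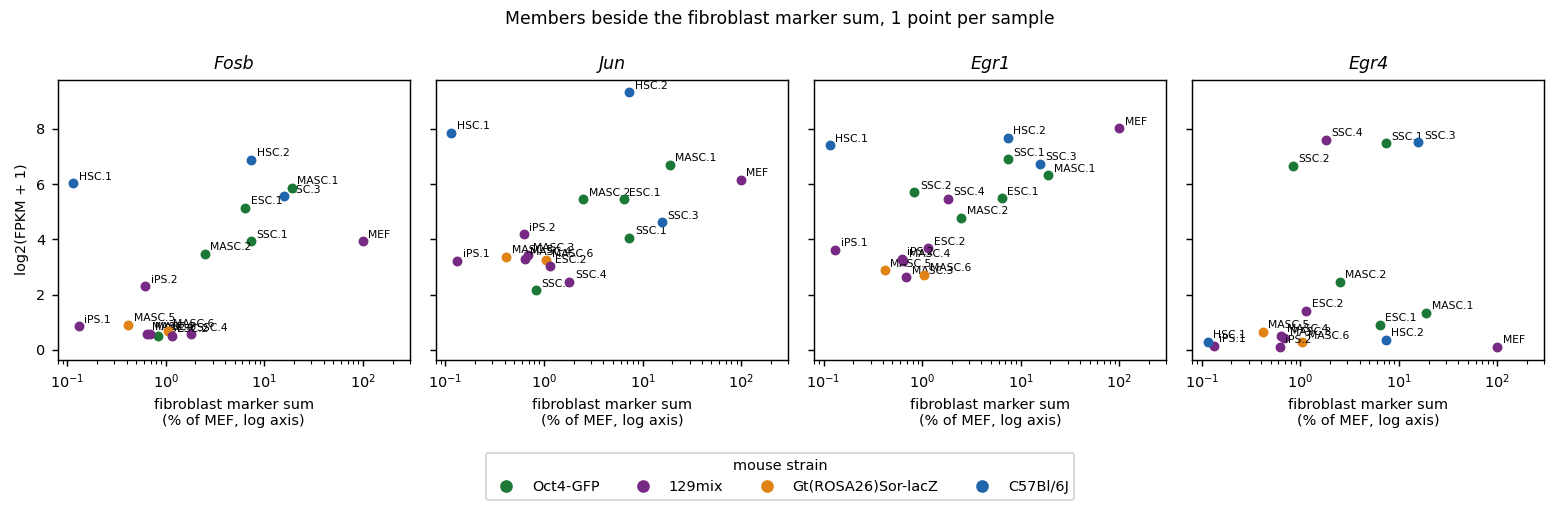
Level of Fosb, Jun, Egr1 and Egr4 as log2(FPKM + 1) against the summed FPKM of 15 fibroblast markers as a percentage of the MEF sample (log axis), with 1 labelled point per sample coloured by mouse strain. MASC.1, SSC.3 and ESC.1 are to the right of their cell types with high Fosb, HSC.1 is far left with high Fosb and Jun, and Egr4 separates SSC lines at any marker sum.

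Of 10 other AP-1 genes, 0 were higher and 1 was lower in MASCs than in SSCs in limma (median difference -0.29). Of all transcripts, 11.4% were called higher and 19.5% lower. The lower gene was Batf3, which encodes a dendritic cell AP-1 factor. It was 9.18, 14.5, 10.8 and 10.1 FPKM in the SSC lines and 0.393 to 2.82 FPKM in MASCs (-2.71 ± 0.27; limma, adjusted p = 6.7e-05). Jund did not pass (-0.64 ± 0.60; limma, adjusted p = 0.50). In MASC.1 and MASC.2 it was 145 and 133.5 FPKM, against 26.7 to 33.9 FPKM in the other MASC lines.

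Of 27 other immediate early genes, 7 were higher and 1 was lower in MASCs (median difference 0.44), against 11.4% and 19.5% of all transcripts. The 3 with the largest rise were Myc, Ctgf and Klf6. Klf6, a zinc finger factor, was 2.76 to 8.24 FPKM in SSCs and 15.5 to 48.1 FPKM in MASCs (2.30 ± 0.36; limma, adjusted p = 0.00092). Ctgf, a secreted matrix protein gene, was 37.0 FPKM in SSC.3, 3.17 to 8.64 FPKM in the other SSC lines and 20.8 to 93.2 FPKM in MASCs (2.49 ± 0.63; limma, adjusted p = 0.013). It was 345 FPKM in MEFs. Myc, the growth-promoting factor, was listed with 2 nearly identical transcripts, which the estimates split unevenly. Their sum was 2.50 to 3.81 FPKM in SSCs and 10.8 to 39.9 FPKM in MASCs (2.81 ± 0.59 for the main transcript; limma, adjusted p = 0.0051). Dusp2, a nuclear MAP kinase phosphatase, was lower in MASCs (-1.19 ± 0.38; limma, adjusted p = 0.039).

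Genes that carry the signal to immediate early promoters moved in both directions. Of 15 genes of the SRF and ERK list, 3 were higher and 5 were lower in MASCs (median difference -0.18). The shares of all transcripts were 11.4% and 19.5%. The ternary complex factor gene Elk4 was 5.22, 9.04, 12.9 and 8.83 FPKM in SSCs and 1.26 to 2.25 FPKM in MASCs (-1.86 ± 0.21; limma, adjusted p = 0.00012). The SRF coactivators Mkl2 (-1.36 ± 0.12) and Mkl1 (-1.28 ± 0.15) were also lower. The ribosomal S6 kinase genes Rps6ka2 (1.70 ± 0.20) and Rps6ka1 (1.31 ± 0.17) were higher, as was the ternary complex factor gene Elk3 (0.94 ± 0.31; limma, adjusted p = 0.045).

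Among 11 feedback genes, which dampen the response, 3 were higher and 2 were lower in MASCs (median difference 0.43). The shares of all transcripts were 11.4% and 19.5%. Both lower genes encode NAB corepressors, which bind EGR proteins and limit their activity. Nab2, itself an EGR target, was 48.0, 46.5, 33.7 and 64.7 FPKM in SSC.1 to SSC.4 and 8.39, 10.6, 2.86, 2.41, 2.83 and 3.46 FPKM in MASC.1 to MASC.6. All SSC lines were above all MASC lines (-3.15 ± 0.41; limma, adjusted p = 0.00030), and the Oct4-GFP lines were again the highest MASC lines. Nab1 was 11.5 to 35.1 FPKM in SSCs and 2.21 to 5.82 FPKM in MASCs (-2.20 ± 0.30; limma, adjusted p = 0.00045). The ERK phosphatase gene Dusp4 (2.77 ± 0.34), the receptor tyrosine kinase antagonist gene Spry2 (2.46 ± 0.24) and the ERK phosphatase gene Dusp6 (1.16 ± 0.29; limma, adjusted p = 0.012) were higher in MASCs.

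Heat shock genes were listed because handling stress can induce them together with immediate early genes. Of 10, 6 were higher and 3 were lower in MASCs (median difference 1.02), against 11.4% and 19.5% of all transcripts. The small heat shock protein gene Hspb1 was 11.4 to 34.9 FPKM in SSCs and 494 to 890 FPKM in MASCs (5.30 ± 0.30; limma, adjusted p = 2.2e-06), and Hspd1 (1.39 ± 0.21) and Hsp90aa1 (1.28 ± 0.26) were higher by less. The stress-inducible Hspa1a and Hspa1b, near-identical neighbours whose reads cannot be fully assigned, were lower by -1.69 ± 0.57 and -1.98 ± 0.53 (limma, adjusted p = 0.048 and 0.017). Hspa1a was 20.9 and 22.9 FPKM in MASC.1 and MASC.2 and 3.46 to 4.84 FPKM in MASC.3 to MASC.6. In ESC.1 and ESC.2 it was nearly equal, at 2.67 and 2.64 FPKM. Dnajb1, a cochaperone gene, was also lower (-0.75 ± 0.11). The part of handling stress in the members' levels was not tested.

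Genes with the pattern most like each member were sought over the 17 samples among 13636 genes with a mean of at least 1 FPKM, by Pearson's r of log2(FPKM + 1), as a description in which cell types carry most of the likeness. For Egr1 they were Nfix (r = 0.95), Dtnbp1 and Pear1, for Fos they were Flii (0.93), Gsn and Tbc1d9b, and for Jun they were Usf2 (0.95), Ly6e and Hist1h2bg. No gene was among the closest 3 of several members at once.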

How the data were processed

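RNA-seq tables of 17 samples were used. The authors aligned reads to mm9 with TopHat2 2.0.11, excluded PCR duplicates and multiply mapped reads, and ran Cufflinks with upper-quartile and GC normalization. The deposited FPKM has 1 value per RefSeq transcript, with confidence bounds in FPKM. The deposited coverage gives reads per base as an unscaled signal. Read counts were not used here. Of 33262 rows per file, 601 further loci of a transcript were left out and 32661 transcripts kept. Coverage at 1 FPKM was 1.26 to 3.23 reads per base and is lower in proportion for values under 1 FPKM. Between 13532 and 16272 transcripts per sample reached 1 FPKM.

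Levels were compared as log2(FPKM + 1), without a filter, with limma 3.58.1 in R 4.3.3 over the 12 SSC, MASC and ESC lines, or over all 17 samples where HSCs or iPS cells entered. The Benjamini-Hochberg adjustment ran over all transcripts and 0.05 was the threshold. Single members and spreads were tested by exact permutation over lines. The limma fit was tested on simulated data. Of the further lists, at most 3 genes per direction with the largest difference between MASCs and SSCs among those past the threshold were named. Of the genes most like a member, those of Egr1, Fos and Jun were named. Jund, MASC.2 and single lines pointed to in the text were chosen after their values were seen. The members and lists were chosen with earlier results of these data known. Alternatives were a pseudocount of 0.1, a filter, quantile normalization, trended robust estimation, sums per gene, replicate and strain blocks, all samples, lines left out and, chosen after seeing the data, omission of lines with fibroblast markers at 5% of MEF or more.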

Additional observations from a re-analysis of the deposited data

Results flagged for a closer look

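Egr4 in SSC.2 stood apart from the other SSC lines. At 101 FPKM against 177 to 193 FPKM, its gap to the nearest line took up 0.87 of the whole range of the 4 lines on log2(FPKM + 1), above the 95% critical value of 0.829. Of the 20 groups of SSC or MASC lines examined over the members, 1 passed its critical value, which chance gives in about 1 in 20. SSC.2 also had the lowest Fosb and Jun of the SSC lines, at 0.425 and 3.45 FPKM, and the highest Egr2, Egr3 and Ier2.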

How the results depend on the processing

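For MASCs against SSCs, the counts of 1 higher and 3 lower members became 3 higher, by Jun and Junb, and 2 lower, by the loss of Egr1, with strain as a block, and were 1 higher and 2 to 4 lower when a line was left out. Egr2, Egr4 and Ier2 passed in all 19 settings and Egr1 in 9 of them. For ESCs against SSCs, the 1 higher member became 0 with the replicate block and 0 without the lines high in fibroblast markers, and the counts were 1 and 2 in every fit without 1 line. For HSCs against SSCs, the 2 lower members became 1 with a pseudocount of 0.1, with quantile normalization and without the lines high in fibroblast markers, and were 1 to 2 when a line was left out, with 2 to 4 higher. For HSCs against MASCs, the 6 higher members became 1 with the replicate block and were 1 to 7 when a line was left out. Calls over all transcripts moved as well. With the replicate block they went from 10307 to 6791 for HSCs against MASCs and from 7000 to 3377 for ESCs against SSCs. With strain as a block they went from 10099 to 8699 for MASCs against SSCs. For HSCs against SSCs they were 10906, and 11447 with a pseudocount of 0.1 and 10873 with quantile normalization. Other counts of members stayed within 1.5 times, and the cause of these moves was not tested. No called difference changed sign.

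Replicate numbers were not taken to pair the lines. Deviations from the group means of SSC and MASC lines with the same number correlated at 0.19, -0.23, -0.22 and 0.14. With 2 lines on one side, they correlated at 0.22 and 0.27 for SSCs and ESCs, 0.43 and -0.37 for MASCs and ESCs, 0.04 and -0.04 for SSCs and HSCs, and -0.15 and -0.08 for MASCs and HSCs. With the replicate block, 2 members were lower and 1 was higher in MASCs than in SSCs, Egr1 being lost (adjusted p = 0.12). Calls over all transcripts in that comparison went from 10099 to 5945. The Ier2 call in ESCs against SSCs was lost (adjusted p = 0.071), as was Junb in HSCs against SSCs (0.066). In HSCs against MASCs, Fos (0.19), Junb (0.16), Jun (0.12), Egr1 (0.077) and Egr3 (0.065) were lost and Egr2 passed.

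With 2 ESC, iPS and HSC lines and 1 MEF sample, exact tests of ESCs or HSCs against SSCs cannot go below p = 0.067, and calls there rest on the spread pooled by limma. Transcripts under 1 FPKM, which include Egr2, Egr3 and Egr4 in most MASCs, rest on few reads. The log2 ratio of the SDs gave the same direction of spread as the deviations for 9 of 10 members, but for Jun it was 0.29 towards MASCs.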
